A study of Mus musculus with 4 samples.

Results

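The genes described here encode the enzymes that take glucose to pyruvate and lactate, the pyruvate dehydrogenase complex with its kinases, pyruvate carboxylase, and the enzymes of the citric acid cycle with their cytosolic counterparts. They were taken from a list of 40 genes by gene name alone, although genes, lists and tests were chosen with earlier results of these data known. A probe set was kept where the platform annotation gave it exactly 1 gene symbol and that symbol was on the list. This left 37 genes with 71 probe sets, out of 12393 genes and 22626 probe sets on the arrays. Gpi1, Gapdh and Eno1 had no probe set of their own under this rule and are not analysed here. The cells were 3T3-F442A, an established mouse preadipocyte line that turns into fat cells in culture. Both groups stably expressed a hairpin RNA delivered by retrovirus, had been kept under puromycin (2 ug/ml, 2 days) to select infected cells, and were differentiated with insulin at 850 nM over 8 days in medium with 10% serum, with rosiglitazone, an activator of PPAR gamma, in the first 2. In the group shGFP (2 arrays) the hairpin was the control, and in the group shTRPV4 (2 arrays) it was directed against Trpv4, a calcium-permeable cation channel. The labels do not say whether the lines were clones or pools, or whether replicates were separate cultures, so p-values measure only how far these 4 arrays scatter, and that scatter may be technical.

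Fat cells take up glucose under the control of insulin and split it by glycolysis into pyruvate. Pyruvate is reduced to lactate, oxidised to acetyl-CoA by the mitochondrial pyruvate dehydrogenase complex, or carboxylated to oxaloacetate. The pyruvate dehydrogenase kinases switch the complex off by phosphorylation. Citrate formed in the mitochondria is oxidised in the citric acid cycle or exported as the carbon source of new fatty acids, and the cytosolic dehydrogenases of isocitrate and malate serve the supply of NADPH and the transfer of reducing power.

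The upstream sequences of the 5 genes that rose are shown first, because these are the genes called in the main analysis. Those of Ldha, at both listed starts, are given beside its isozyme gene Ldhb. Each runs 5′ to 3′ on the strand of the gene over the 250 bases before a RefSeq transcript start, in GRCm38.p6. The capitals mark 3 motifs, searched on both strands: ACGTG (a form of the core of the hypoxia response element), CACGTG (the palindromic E-box, which contains the first) and CCGCCC (the GC box). Another form of the hypoxia core, GCGTG, was not searched, so a window without ACGTG may still hold that form.
Pfkl (chr10:78009808-78010057, minus strand): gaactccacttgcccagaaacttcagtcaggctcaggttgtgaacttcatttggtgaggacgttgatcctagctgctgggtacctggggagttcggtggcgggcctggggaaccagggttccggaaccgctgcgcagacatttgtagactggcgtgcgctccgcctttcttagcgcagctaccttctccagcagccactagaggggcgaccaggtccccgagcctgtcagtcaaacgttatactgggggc
Ldhb (chr6:142507958-142508207, minus strand): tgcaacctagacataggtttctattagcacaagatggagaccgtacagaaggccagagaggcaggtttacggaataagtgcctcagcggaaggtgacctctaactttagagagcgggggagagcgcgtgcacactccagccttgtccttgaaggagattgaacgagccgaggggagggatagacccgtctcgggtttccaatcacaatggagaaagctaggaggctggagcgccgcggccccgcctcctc
Pdhb (chr14:8172993-8173242, minus strand): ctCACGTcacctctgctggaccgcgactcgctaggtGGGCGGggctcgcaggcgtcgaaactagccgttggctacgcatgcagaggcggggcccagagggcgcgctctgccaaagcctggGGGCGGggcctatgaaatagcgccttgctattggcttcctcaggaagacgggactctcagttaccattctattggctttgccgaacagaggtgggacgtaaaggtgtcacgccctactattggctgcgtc
Aco1 (chr4:40143015-40143264, plus strand): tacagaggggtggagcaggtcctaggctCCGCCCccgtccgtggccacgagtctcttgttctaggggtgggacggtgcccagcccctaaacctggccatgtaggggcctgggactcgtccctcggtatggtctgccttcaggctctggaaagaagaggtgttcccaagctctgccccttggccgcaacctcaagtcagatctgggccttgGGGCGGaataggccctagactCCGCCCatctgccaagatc
Idh1, first start (chr1:65179143-65179392, minus strand): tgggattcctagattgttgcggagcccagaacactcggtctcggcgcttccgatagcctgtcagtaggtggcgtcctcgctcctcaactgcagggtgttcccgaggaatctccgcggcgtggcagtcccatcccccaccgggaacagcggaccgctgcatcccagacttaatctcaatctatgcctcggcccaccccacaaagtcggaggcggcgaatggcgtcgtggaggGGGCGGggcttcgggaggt
Idh1, second start (chr1:65186480-65186729, minus strand): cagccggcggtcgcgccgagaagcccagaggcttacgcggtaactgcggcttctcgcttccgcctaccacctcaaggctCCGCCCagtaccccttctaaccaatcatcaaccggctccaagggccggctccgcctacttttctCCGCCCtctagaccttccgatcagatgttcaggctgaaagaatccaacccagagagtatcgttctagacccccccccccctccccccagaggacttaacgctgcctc
Ldha, first start (chr7:46845554-46845803, plus strand): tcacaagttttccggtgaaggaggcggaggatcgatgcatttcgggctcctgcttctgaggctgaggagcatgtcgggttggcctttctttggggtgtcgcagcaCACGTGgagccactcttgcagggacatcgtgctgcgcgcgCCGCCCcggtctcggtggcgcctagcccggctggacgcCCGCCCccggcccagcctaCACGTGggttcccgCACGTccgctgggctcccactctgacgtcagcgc
Ldha, second start (chr7:46846832-46847081, plus strand): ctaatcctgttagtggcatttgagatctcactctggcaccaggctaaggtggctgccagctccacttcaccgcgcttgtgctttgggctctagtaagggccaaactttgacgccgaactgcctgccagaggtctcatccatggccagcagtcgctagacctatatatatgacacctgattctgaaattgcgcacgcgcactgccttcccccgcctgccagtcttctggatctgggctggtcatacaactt
Windows were found for 36 of the 37 measured genes (Idh3a had none). A gene was counted where any of its listed starts held the motif. The 39 listed genes with a window had 60 windows, and all 27025 genes with a window had 32851. The listed genes thus had more windows each. The shares below were adjusted neither for this nor for the base composition of the windows. The 27025 genes also include genes not measured on these arrays. ACGTG stood in 16 of the 36 (44.4%), against 18.5% of 27025 genes with a window. The motifs of Ldha all lie before its first start, and the window before its second start, like that of Ldhb, held none of the 3. CACGTG stood in 6 (16.7%, against 6.86%) and CCGCCC in 25 (69.4%, against 35.4%). Among the 5 genes that rose, Pdhb alone held ACGTG, none held CACGTG, and Pdhb, Aco1 and Idh1 held CCGCCC. The 6 genes with CACGTG were Pfkm, Pfkfb3, Ldha, Pcx, Pdk2 and Ogdh, and none of these passed the test described below. Their log2 differences, shTRPV4 minus shGFP, were 0.18, −0.32, 0.10, 0.51, 0.45 and −0.21 in that order, against 0.47 for Pdhb, which passed. Pcx was called with median centring. With 6 and 5 genes, the lack of a shared gene can show nothing about the motif. A match here is a run of letters in a window and was not tested for any relation to the measured levels.

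The values are deposited intensities, 1 per probe set and array, and how the authors scaled them or treated background is not stated in these sources. They were analysed as log2(intensity + 16) after quantile normalization, and differences are shTRPV4 minus shGFP on that scale. A gene with several probe sets is represented by the brightest. A gene is said to have risen or fallen where its limma p-value, adjusted by the Benjamini-Hochberg method over all probe sets, was under 0.05. The Trpv4 transcript read 43.7 and 93.8 on the shGFP arrays and 80.1 and 79.5 on the shTRPV4 arrays, so the label was not borne out at the RNA level on this probe set (difference 0.32, 95% interval −0.55 to 1.19, limma adjusted p = 0.55). The groups are therefore named by their labels throughout. Of 10 adipocyte markers measured, 5 rose and 0 fell (Retn, Slc2a4, Cebpa, Dgat2 and Pparg). Dgat2 and Pparg were no longer called on the deposited scale. Of the 5 not called, Lipe (0.43) and Adipoq (0.16) had positive differences, and Cidec (−0.14) and Lpl (−0.05) negative ones. Fabp4 was the brightest probe set on every array, so quantile normalization fixed its difference at 0. The summed intensity of the 10 was 57207 to 57395 on the shGFP arrays and 66121 to 69572 on the shTRPV4 arrays. All sums in this paragraph are of deposited intensities, without normalization. Among 11 markers of preadipocytes and fibroblasts, 7 fell, with 0 rising (Sfrp2, Lum, Dcn, Pdgfra, Dlk1, Cd34 and Thy1), and their sum went from between 45667 and 48106 to between 31637 and 32982. Of 11 macrophage markers 3 fell (Lyz2, Cd14 and Csf1r) and 1 rose (Cd68), with sums of 980.3 to 1088 and 660.8 to 691.9. Csf1r was called on its brightest probe set, and its other 2 did not pass (−0.13 and −0.065). One of 8 skeletal muscle markers, Des, rose on 1 of its 2 probe sets (the other differed by 0.11, and the call was lost as deposited), with sums of 552.2 to 575.4 and 682.0 to 683.7, and 0 of 6 endothelial markers passed, with sums of 63.0 to 90.9 and 73.8 to 88.8. No marker measured was listed at 0, but 418 to 470 probe sets per array read exactly 1, so this does not show detection. The macrophage marker Fcgr1, for example, read 1.45 and 1.37 on the shGFP arrays and 1.13 and 3.27 on the shTRPV4 arrays. The adipocyte markers that passed went in the direction of most of the genes below, and the stromal markers in the opposite direction. The part of both sets of markers in these results was not tested. In RNA from a whole culture, fewer cells of a type and less RNA per cell cannot be told apart.

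Of the 37 genes, 5 rose and 0 fell in the arrays labelled shTRPV4. These were Pfkl, the liver-type phosphofructokinase; Ldhb, the heart-type lactate dehydrogenase subunit; Pdhb, the beta subunit of pyruvate dehydrogenase; Aco1, the cytosolic aconitase; and Idh1, the cytosolic isocitrate dehydrogenase. Their differences lay between 0.47 and 0.58, that is 1.38-fold to 1.49-fold. The 5 made up 13.5% of the genes, against 5.33% of all genes called higher and 6% called lower in the same fit. With the values as deposited 4 rose and 1 fell: Pfkl was no longer called (adjusted p = 0.0524), and Suclg2 was called lower (−0.43, adjusted p = 0.0487). Over all genes the split of calls also moved with the scaling, from 661 higher and 744 lower to 380 and 718 as deposited, and to 1036 and 708 with median centring.

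Small positive differences were the rule among the 32 genes that did not pass. Of the 37, 33 had a positive difference (89.2%, against 53.5% of all genes), with a median of 0.23 against 0.02. Both shTRPV4 arrays lay above both shGFP arrays for 30 of the 37 on the normalized scale (81.1%, against 33.2% of all genes). For 4 they lay below (10.8%, against 27.7%), namely Pfkfb3, Pdk3, Ogdh and Suclg2. The values overlapped for Slc2a1, Aldoc and Pdk4. Of the 37 genes, 35 (94.6%) were brighter than the median probe set, against 55% of all genes. When dim probe sets under that median were left out, the median difference was 0.23 for the 35 genes and 0.03 for all genes kept. Whether brightness has a part in the shift was not tested further.

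**Figure D1:**
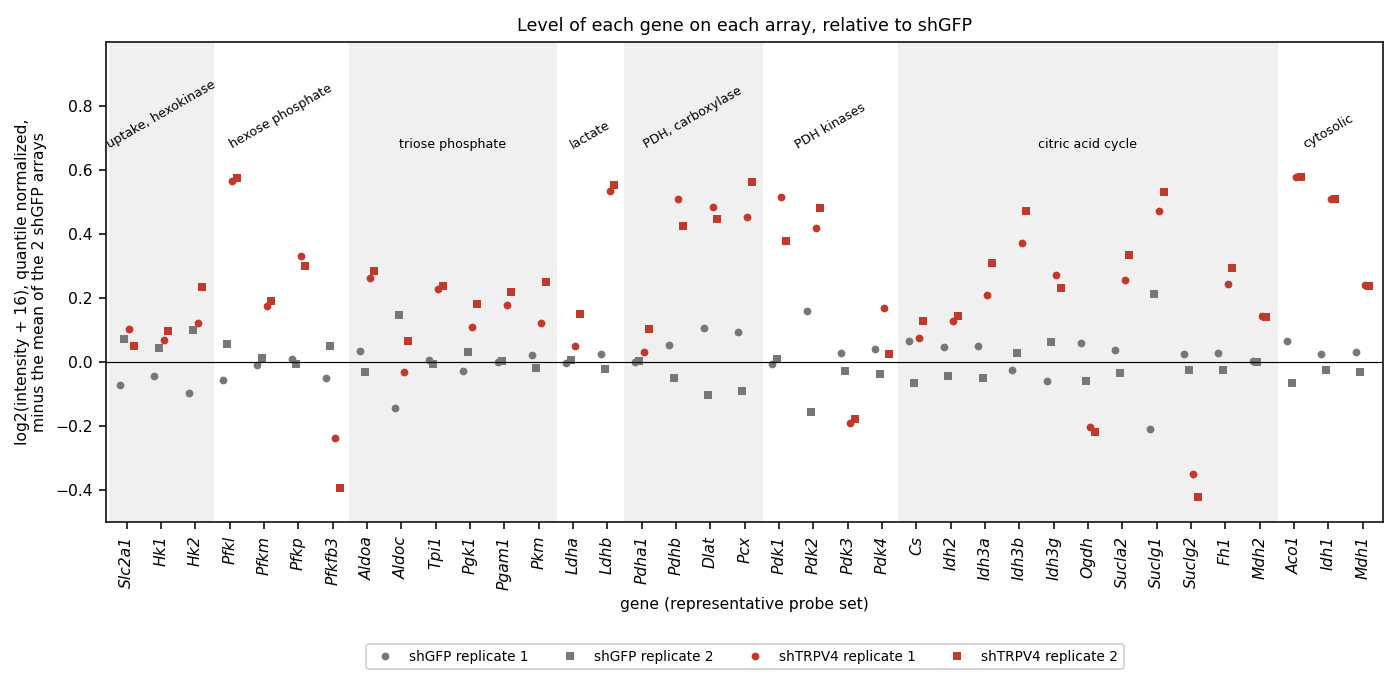
Normalized log2 level of each of the 37 genes on each of the 4 arrays, relative to the mean of the shGFP arrays, in the order of the pathway. Grey points are shGFP and red points shTRPV4, circles replicate 1 and squares replicate 2. The red points lie above both grey points for 30 genes and below both for Pfkfb3, Pdk3, Ogdh and Suclg2.

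Glucose uptake and its first phosphorylation were measured by 3 genes, and none passed. Slc2a1, the insulin-independent glucose transporter GLUT1, read 6005 and 6743 on the shGFP arrays and 6988 and 6919.6 on the shTRPV4 arrays (0.08, 95% interval −0.16 to 0.31). Hk1, the widely expressed hexokinase, read 1565 and 1721 against 1654 and 1738 (0.08, −0.11 to 0.28). Hk2, the hexokinase of insulin-responsive tissues, read 2341 and 2778 against 2716 and 3037 (0.18, −0.11 to 0.47). The deposited intensities of both hexokinases overlapped between groups, and all 3 intervals reached across 0. By contrast Slc2a4, the insulin-responsive transporter GLUT4, rose from 493.3 and 372.7 to 1000.8 and 908.4 (1.16, SE 0.19, limma adjusted p = 0.0488). It is among the adipocyte markers above, and the difference between the 2 transporter genes was not tested.

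Among the genes of the hexose phosphate steps, the phosphofructokinase subunits all had positive differences, and 1 passed. Phosphofructokinase commits sugar to glycolysis, and its tetramers are built from liver, muscle and platelet types of subunit. Pfkl, the liver type, read 1149.7 and 1289 on the shGFP arrays and 1733 and 1818 on the shTRPV4 arrays (0.57, SE 0.07, limma adjusted p = 0.0331). Both shTRPV4 arrays lay above both shGFP arrays, and its second probe set rose by the same 0.57 (adjusted p = 0.0281). Pfkp, the platelet type, read 1274 and 1307 against 1565 and 1576 and did not pass (0.32, 95% interval 0.14 to 0.49, adjusted p = 0.0627). Pfkm, the muscle type, read 547.4 and 584.3 against 607.2 and 636.3 (0.18, 0.01 to 0.36, adjusted p = 0.153). Whether the 3 subunit genes differed from one another in their response was not tested. Pfkfb3 makes fructose 2,6-bisphosphate, the allosteric activator of phosphofructokinase. It went the other way, with 592.3 and 672.4 against 507.4 and 467.6 (−0.32, −0.57 to −0.06, adjusted p = 0.113), and its dimmer second probe set differed by 0.03.

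From aldolase to pyruvate kinase 6 genes were measured, and none passed. Aldoa, the main aldolase outside liver and brain, read 11489 and 11347 on the shGFP arrays and 14068 and 14725 on the shTRPV4 arrays (0.27, 95% interval 0.09 to 0.46, limma adjusted p = 0.0858). All 4 of its probe sets had positive differences, from 0.23 to 0.40, and the third brightest passed (0.40, adjusted p = 0.0475). These 4 are of the _x_at kind, which can also read related transcripts. Aldoc, the brain aldolase, was dim, at 34.5 and 46.6 against 37.3 and 40.1 (0.02, −0.34 to 0.38), and its sign changed with the scaling (−0.04 as deposited). Tpi1, triose phosphate isomerase, differed by 0.23 (0.06 to 0.40) and the mutase gene Pgam1 by 0.20 (0.02 to 0.38). For Pkm, the pyruvate kinase of most tissues, the difference was 0.18 (−0.04 to 0.40), and for the phosphoglycerate kinase gene Pgk1 0.14 (−0.05 to 0.34). The arrays of the groups did not overlap for any of the bright genes of this stretch, and the differences stayed under 0.3 on the representative probe sets. As deposited, Aldoa differed by 0.33. Aldoa, Tpi1, Pgam1 and Pgk1 lay between percentiles 99.2 and 99.7 of mean level, and the part of so bright a signal was not tested.

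The lactate dehydrogenase subunits differed in their calls. The enzyme interconverts pyruvate and lactate as a tetramer of muscle-type and heart-type subunits. Ldhb, the heart type, read 1811 and 1826 on the shGFP arrays and 2542 and 2669 on the shTRPV4 arrays (0.54, SE 0.06, limma adjusted p = 0.0288). Each of its 4 probe sets rose, by 0.54 to 0.63. Ldha, the muscle type, read 11494 and 12029.7 against 12395 and 13820.4 and did not pass (0.10, 95% interval −0.10 to 0.30, adjusted p = 0.424). On the deposited scale the difference of its single probe set was 0.15. By mean level Ldha lay at percentile 99.5 of all probe sets and Ldhb at 91.5. Whether so bright a signal has a part in the smaller difference was not tested. The interval of Ldha ends below that of Ldhb, which starts at 0.36, but the difference between the isozymes was not tested. Slc16a1, which encodes the lactate and pyruvate transporter MCT1, fell from 2843 and 3052 to 1699 and 1698 (−0.76, SE 0.07, adjusted p = 0.0202).

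At the entry of pyruvate into the mitochondrion, 1 of 4 genes rose and the other 3 had positive differences. Pdhb read 3609.9 and 3474 on the shGFP arrays and 5046 and 4881 on the shTRPV4 arrays (0.47, SE 0.08, limma adjusted p = 0.0484). Its second probe set rose by 0.66 (adjusted p = 0.0358). The alpha subunit gene of the same enzyme, Pdha1, read 4358 and 4511 against 4451 and 4841 (0.07, 95% interval −0.12 to 0.25), with deposited intensities that overlapped between the groups and a second probe set at −0.07. Dlat, the acetyltransferase core of the complex, read 739.5 and 670.7 against 944.7 and 960.5 (0.47, 0.19 to 0.74, adjusted p = 0.0696). Pcx, pyruvate carboxylase, which refills oxaloacetate, read 4120.3 and 3764 against 5403 and 6022 (0.51, 0.23 to 0.79, adjusted p = 0.061). The differences of Dlat and Pcx were about as large as that of Pdhb (0.47), with standard errors of 0.10 each against 0.08. Dld, the dihydrolipoamide dehydrogenase shared by this and related complexes, differed by 0.57 (adjusted p = 0.0519).

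The 4 kinase genes of the complex did not move as a group, and none passed on its representative probe set. Pdk1 read 2535 and 2642 on the shGFP arrays and 3650.1 and 3413 on the shTRPV4 arrays (0.45, 95% interval 0.22 to 0.67, limma adjusted p = 0.0524). Its second probe set rose by 0.56 (adjusted p = 0.0378), and the gene was called when its probe sets were averaged (0.50, adjusted p = 0.0286). Pdk2 was dim, at 57.5 and 43.6 against 68.1 and 72.5 (0.45, 0.08 to 0.82, adjusted p = 0.119). Pdk3 had a negative difference, with 719.9 and 721.1 against 600.1 and 623.9 (−0.19, −0.37 to −0.0035, adjusted p = 0.158). Pdk4, the kinase known for its induction in fasting, read 441.97 and 444.8 against 473.1 and 439.2 (0.10, −0.15 to 0.34), with overlapping arrays.

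Within the mitochondrial citric acid cycle 11 genes were measured and none passed, although 9 had positive differences. Cs, citrate synthase, read 3385 and 3181 on the shGFP arrays and 3402 and 3636 on the shTRPV4 arrays (0.10, 95% interval −0.12 to 0.33), and 1 of its 3 probe sets was negative at −0.10. The NAD-dependent isocitrate dehydrogenase has alpha, beta and gamma subunits, encoded by Idh3a, Idh3b and Idh3g. Idh3b came nearest to the threshold, with 2422 and 2612 against 3203 and 3525 (0.42, 0.21 to 0.63, limma adjusted p = 0.0507). Idh3a read 3252 and 3129 against 3629.7 and 4001 (0.26, 0.03 to 0.48), and Idh3g 2726 and 3059.8 against 3449 and 3460.1 (0.25, 0.04 to 0.47). The NADP-dependent mitochondrial enzyme Idh2 read 1839.5 and 1792 against 1895 and 2001 (0.13, −0.06 to 0.33). All 3 subunit genes of the NAD-dependent enzyme thus had intervals above 0, without overlap between the arrays of the groups.

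The next steps of the cycle gave differences of both signs. The 2-oxoglutarate dehydrogenase complex consists of the dehydrogenase Ogdh, the succinyltransferase Dlst and the shared subunit Dld. Ogdh read 746.0 and 717.6 on the shGFP arrays and 603.3 and 617.4 on the shTRPV4 arrays and did not pass (−0.21, 95% interval −0.42 to −0.00046, limma adjusted p = 0.163). Dlst, from the list of other genes of these pathways, fell from 1381 and 1376 to 604.7 and 652.5 (−1.08, SE 0.07, adjusted p = 0.0157). The dimmer of its 2 probe sets did not pass (−0.13, adjusted p = 0.491). Succinyl-CoA ligase pairs 1 alpha subunit, Suclg1, with a beta subunit for ATP, Sucla2, or for GTP, Suclg2. Suclg1 read 2669 and 3654 against 4284 and 4560.1 (0.50, 0.03 to 0.97, adjusted p = 0.147), and Sucla2 3066 and 3007 against 3588 and 3916 (0.29, 0.09 to 0.50, adjusted p = 0.0873). Suclg2 had the lowest difference of the 37, with 714.9 and 719.7 against 533.6 and 521.9 (−0.39, −0.58 to −0.19, adjusted p = 0.0522). The beta subunit genes thus had opposite signs, with intervals on either side of 0, and their difference was not tested. Fh1, fumarase, differed by 0.27 (0.08 to 0.46) and the mitochondrial malate dehydrogenase gene Mdh2, at 5898 and 6016 against 6738 and 6869, by 0.14 (−0.03 to 0.31).

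The cytosolic counterparts of cycle enzymes held 2 of the 5 genes that rose. Idh1 makes NADPH outside the mitochondrion. It read 6401 and 6367 on the shGFP arrays and 9343 and 9684 on the shTRPV4 arrays (0.51, SE 0.06, limma adjusted p = 0.0315), and both of its probe sets, of the _s_at kind, rose. Aco1 interconverts citrate and isocitrate in the cytosol and, without its iron-sulfur cluster, binds iron-responsive RNA elements. It read 4163 and 3926 against 6032 and 6218 (0.58, SE 0.08, adjusted p = 0.0348), on an _x_at probe set. Its other probe set differed by 0.70 and did not pass (adjusted p = 0.0653). Mdh1, of the malate-aspartate shuttle, read 9474 and 9401 against 11376 and 11783 (0.24, 95% interval 0.05 to 0.42, adjusted p = 0.106) on another _x_at probe set. On its brightest probe set outside the _x_at and _s_at kinds Mdh1 rose by 0.48 (adjusted p = 0.0378).

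**Figure D2:**
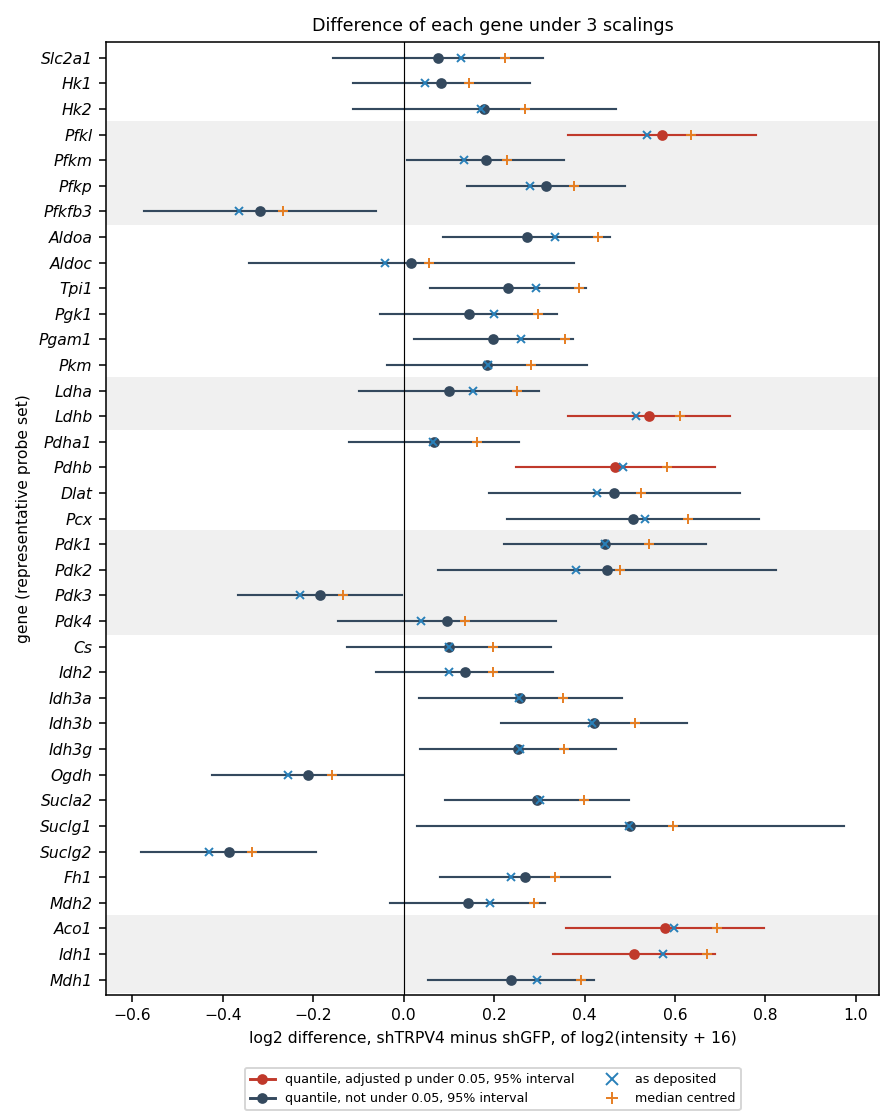
Log2 difference of each of the 37 genes, shTRPV4 minus shGFP, with its 95% interval after quantile normalization (circles, red where the adjusted p was under 0.05) and the same difference as deposited (crosses) and median centred (plus signs). The 5 red genes lie between 0.47 and 0.58, and Aldoc is the gene whose sign changed with the scaling.

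The median of the set and the number of calls moved with the scaling. The median difference of the 37 genes was 0.23 after quantile normalization, 0.26 as deposited and 0.35 with median centring. Relative to the median of all genes it was 0.21, 0.26 and 0.26. The values as deposited and with median centring are equal by construction, because centring shifts every gene by the same amount. With median centring 13 genes rose and 0 fell. These were the 5 above with Pfkp, Aldoa, Tpi1, Dlat, Pcx, Pdk1, Idh3b and Mdh1. Of the 37 genes, 36 kept their sign in every alternative run, and Aldoc did not. The filters on dim probe sets, the intensity trend and the replicate block leave each difference unchanged. Those runs therefore could not alter a sign. All 5 calls were lost with an offset of 1 in place of 16 (limma adjusted p from 0.0587 for Ldhb to 0.0832 for Pdhb). They were also lost, with every other call on the arrays, when any array was left out, where 1 residual degree of freedom remains.

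Probe sets of one gene mostly agreed in sign. Of 22 genes with more than 1 probe set, 18 had all of them on one side of 0, and the exceptions were Pfkfb3, Aldoc, Pdha1 and Cs. Of the 71 probe sets, 64 had a positive difference (90.1%, against 52.5% of all 22626 probe sets). Of the 71, 14 rose (19.7%, against 4.54% of all probe sets called higher) and 0 fell (against 5.36% called lower). Probe sets of one gene read the same transcripts and are not independent. Those beyond the representatives were all the further ones of Pfkl, Ldhb, Pdhb and Idh1, and 1 each of Aldoa, Pdk1 and Mdh1.

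**Figure D3:**
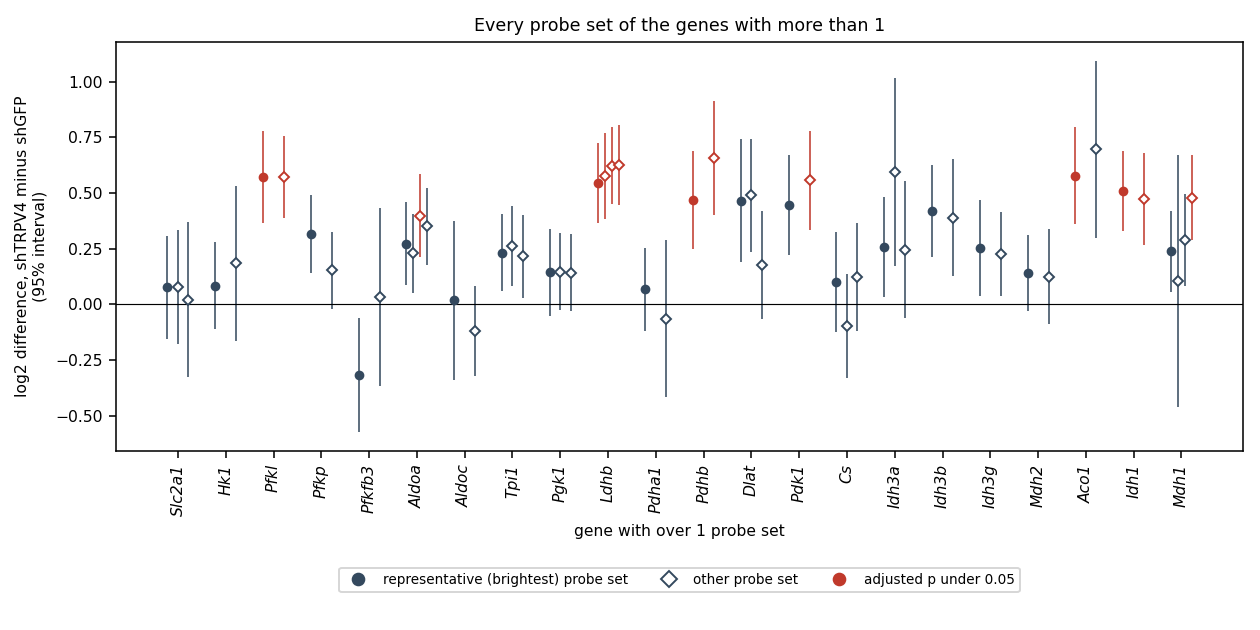
Log2 difference with 95% interval for every probe set of the 22 genes with more than 1. Filled circles are the brightest probe set of the gene, open diamonds the others, and red marks an adjusted p under 0.05. All 4 Ldhb probe sets lie between 0.54 and 0.63.

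The other measured genes of these pathways, 23 in number, did not share the direction throughout: 4 rose and 2 fell, with a median of 0.15. Besides Slc2a4, Dlst and Slc16a1 above, Eno2, the neuronal enolase, rose from 384.9 and 481.8 to 677.0 and 843.7 (0.84, SE 0.14, limma adjusted p = 0.0494). Khk, the fructokinase, rose by 0.46 (adjusted p = 0.0429), and Sdhc, the succinate dehydrogenase subunit, by 0.37 (adjusted p = 0.0499). On the deposited scale Eno2, Khk and Sdhc were not called. Of the other succinate dehydrogenase genes, Sdhb differed by 0.35 (adjusted p = 0.0522), Sdha by 0.23 and Sdhd by 0.06. The pyruvate carrier gene Mpc1 differed by 0.24 (adjusted p = 0.229).

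Several genes on branches that leave glycolysis rose as well. In the pentose phosphate pathway 3 of 10 genes rose and 0 fell (median 0.17). They were H6pd, the hexose-6-phosphate dehydrogenase of the endoplasmic reticulum (from 880.5 and 900.8 to 1417 and 1523, 0.75, SE 0.07, limma adjusted p = 0.0202), Tkt, transketolase (0.62, adjusted p = 0.0254), and Rpia, ribose-5-phosphate isomerase (0.43, adjusted p = 0.0495, lost as deposited). In glycogen metabolism 4 of 16 rose and 0 fell (median 0.12). Pygb, the brain-type glycogen phosphorylase, went from 784.4 and 683.1 to 1507 and 1545 (1.08, SE 0.12, adjusted p = 0.0263). Ppp1r3c, which targets a phosphatase to glycogen, rose by 0.69, Gys1, glycogen synthase, by 0.57, and Pgm1, phosphoglucomutase, by 0.44. On the deposited scale those last 3 were not called.

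Of 10 genes of gluconeogenesis and glycerol use, 2 rose and 1 fell (median 0.07). Gpd2, the mitochondrial glycerol-3-phosphate dehydrogenase, went from 368.6 and 411.6 to 694.8 and 726.0 (0.89, SE 0.07, limma adjusted p = 0.0182). Aqp7, the glycerol channel, rose by 1.20 on an _x_at probe set (adjusted p = 0.0293), but its other probe set differed by −0.20 (adjusted p = 0.472). Pck1, the cytosolic phosphoenolpyruvate carboxykinase, fell from 210.7 and 148.2 to 30.3 and 20.3 (−2.18, SE 0.24, adjusted p = 0.0263). A second Pck1 probe set did not pass (−0.17, adjusted p = 0.523). The mitochondrial counterpart Pck2 did not pass (−0.40, adjusted p = 0.0534). Of 10 genes of citrate export, the malate-aspartate shuttle and NADPH supply, 2 rose and 0 fell (median 0.22). Slc25a10, the mitochondrial dicarboxylate carrier, went from 1956 and 1707 to 3385 and 3474 (0.92, SE 0.11, adjusted p = 0.0295), and Me1, the cytosolic malic enzyme, rose by 0.74 (adjusted p = 0.0351). Acly, which splits citrate in the cytosol, differed by 0.44 and did not pass (adjusted p = 0.142). With an offset of 1, of the genes named as called from the related lists, only Car9 and Thrsp (a carbonic anhydrase and a lipogenic regulator), Dlst, Gpd2, H6pd and Slc16a1 were still called, an alternative added after seeing the data.

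**Figure D4:**
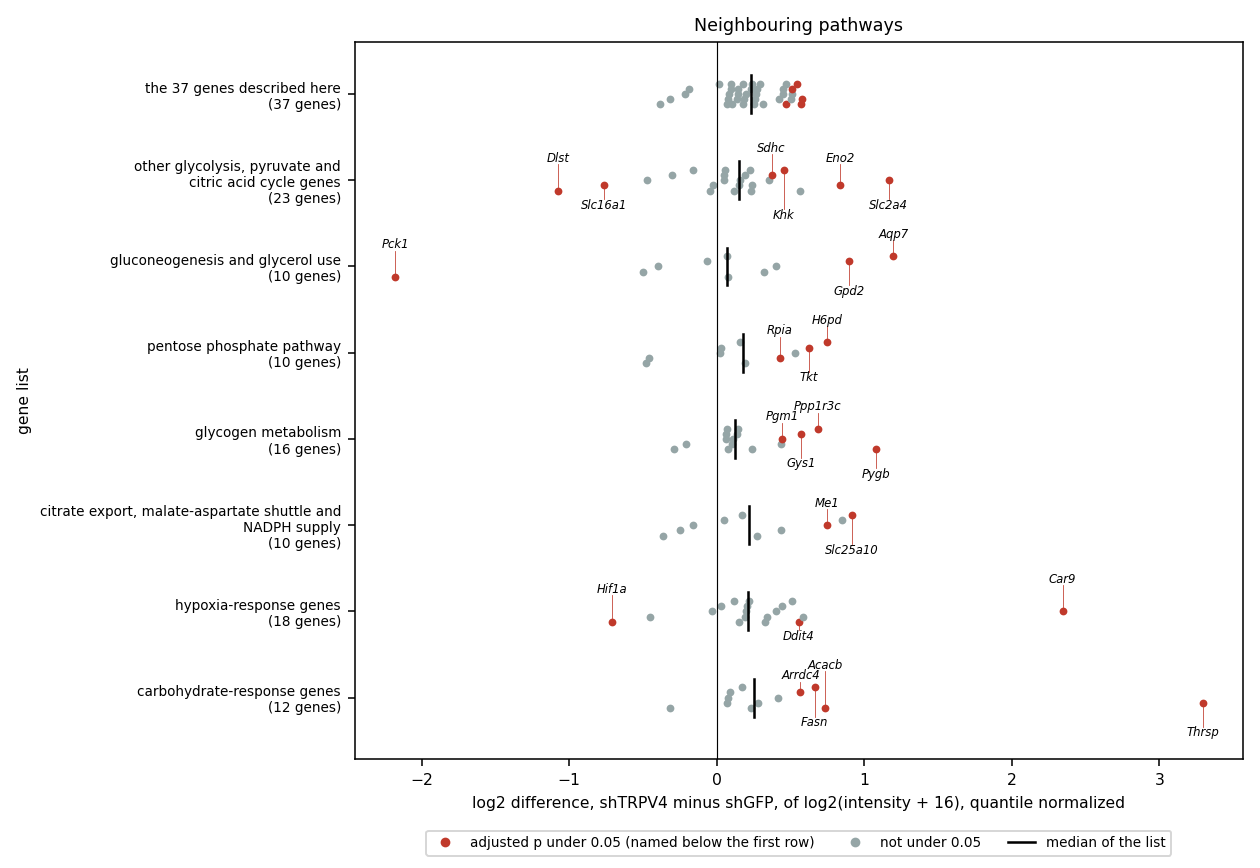
Log2 difference of the 37 genes and of the measured genes of 7 related lists, 1 point per gene. Red points had an adjusted p under 0.05 and are named, with a thin line to each name, below the first row, and the black bar is the median of each list. Pck1 lies at −2.18 and Thrsp at 3.29, while the 37 genes lie between −0.39 and 0.58.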

How the data were processed

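Total RNA of the 4 samples was made into biotinylated cRNA by the Affymetrix protocol, per the labels. The deposited values are linear intensities, 1 per probe set and array. How they were summarised, background corrected and scaled is not given here by any source. Array medians ran from 129.4 to 144.0 and, as log2(intensity + 16), spanned 0.138, above the limit of 0.1 for use without scaling, so values were quantile normalized. Groups were compared with limma 3.58.1 (R 4.3.3; lmFit and eBayes without trend; 2 residual and 1.80 prior degrees of freedom) over all 22626 probe sets, checked on simulated data. Genes were named through the platform annotation (20380 probe sets with 1 symbol, 691 with several, 1555 unnamed). The gene ID of 20351 matched RefSeq (GRCm38.p6). With 2 arrays against 2 an exact permutation test cannot go below p = 0.333, so none is given. Every gene is named with its difference. Values on each array are given for called genes and for enzyme families, and called genes are named from the 7 related lists. Genes, lists and tests were chosen with earlier results of these data known. Alternatives changed scaling, offset, filters, the choice of probe set, the variance model, pairing and arrays. Those for single genes of the related lists were added after seeing the data. Promoter sequences are RefSeq's (GRCm38.p6). The number of arrays limits the precision.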

Additional observations from a re-analysis of the deposited data

How the results depend on the processing

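Of the 37 genes, 5 rose and 0 fell in the main analysis. With median centring 13 rose, with an offset of 64 15, and with an intensity trend 18. With probe sets under the 25th percentile left out 11 of 37 rose, and under the 50th 20 of the 35 kept. With an offset of 1 none (0) rose, while 19 were higher and 2 lower at an unadjusted limma p under 0.05. Of all 12393 genes, 3747 passed that limit in either direction. One gene (1) was called lower as deposited, with an offset of 64, with the 25th percentile filter, with probe sets averaged and with the trend (Suclg2 each time), and 3 with the 50th percentile filter (Suclg2, Ogdh and Pfkfb3). The median of the genes moved to 0.35 with median centring. Over all 12393 genes, the higher calls were 661 in the main analysis, 380 as deposited and 1036 with median centring. They were 116 and 1356 with offsets of 1 and 64, and 1408 with the trend. The filters kept 9632 and 6817 genes, of which 1298 and 1714 were called higher. Higher calls over all genes thus grew in the same settings as those of the 37 genes. Lower calls were 271 and 1221 with the offsets, 1189 and 1370 with the filters and 1236 with the trend. In the fit with a replicate block, 0 genes were called by limma, that is 0 genes higher and 0 lower, members included, with 4029 at an unadjusted p under 0.05 (17 of the 37 genes higher and 1 lower). Differences of replicates 1 and 2 correlated at 0.12 between the groups, which with 2 pairs does not establish a pairing. Leaving out any array gave 0 calls, with between 2683 and 3417 genes past 0.05 before adjustment and 8 to 16 of the 37 higher. These fits have 1 residual degree of freedom. The Trpv4 log2 difference was −0.093 without replicate 1 of shGFP and up to 0.73 without another array. Aldoc went to −0.041 as deposited, −0.052 with probe sets averaged, and from −0.13 to 0.16 with an array left out. Aqp7 went to −0.20 on its probe set outside _x_at. Without _x_at and _s_at probe sets Idh1 and Aldoa were not measured, and the call for Aco1 was lost (adjusted p = 0.0653). Besides what is named, the causes of these changes were not tested. The unstated background treatment leaves unknown how far the dim probe sets of Aldoc and Pdk2 stand above background.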

Other observations

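Genes that respond to low oxygen or to sugar were also measured, as lists chosen like the others. Of 18 hypoxia-response genes, 2 rose and 1 fell, with a median of 0.21. Car9, a carbonic anhydrase induced by hypoxia, went from 32.2 and 39.3 to 225.7 and 247.0 (2.34, SE 0.10, limma adjusted p = 0.0147), and Ddit4, a stress-induced inhibitor of mTOR complex signalling, rose by 0.55 (adjusted p = 0.0316). Hif1a, which encodes an oxygen-regulated transcription factor protein, fell from 5302 and 4986 to 3193 and 3170.1 (−0.71, SE 0.08, adjusted p = 0.0268). Of its other 3 probe sets, those at −1.09 and −0.87 fell too, and the third, which was dim, did not pass (0.14). Vegfa (0.58, adjusted p = 0.188), Egln3 (0.51, adjusted p = 0.0695), Bnip3 (0.15) and Adm (−0.46, adjusted p = 0.131) did not pass. The RNA of Hif1a and that of Car9 differed in opposite directions on the same arrays. The protein made from Hif1a was not measured, and a response to low oxygen was not tested.

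Of 12 carbohydrate-response genes, 4 rose and 0 fell, with a median of 0.25. Thrsp, a regulator of lipid synthesis, went from 39.3 and 32.6 to 472.6 and 478.1 (3.29, SE 0.09, limma adjusted p = 0.0147). Fasn, fatty acid synthase, rose by 0.66, the arrestin-domain gene Arrdc4 by 0.57 (0.19 on its other probe set, which did not pass), and the acetyl-CoA carboxylase gene Acacb by 0.74 (adjusted p = 0.0459, lost as deposited). Mlxipl, which encodes the carbohydrate-response factor ChREBP, was dim, at 21.9 and 31.9 against 34.1 and 44.8, and did not pass (0.41, 95% interval −0.08 to 0.91). Txnip, a thioredoxin-binding target of that factor, differed by 0.17 and did not pass (adjusted p = 0.322).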
